A study of Homo sapiens with 6 samples.

Results

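The BCL2 family sets the threshold at which mitochondria release cytochrome c and a cell enters apoptosis. Its transcripts were read here on Agilent Whole Human Genome arrays in 2 human ovarian cancer cell lines in which Hic-5, a focal adhesion adaptor encoded by TGFB1I1, had been targeted or overexpressed. The members were all probes, other than control spots, whose gene name in the deposited files is BCL2, BCL2L1, MCL1, BCL2A1, BCL2L11, BID, BIK, BMF, HRK or BAK1. This gave 23 probes of 10 genes out of 41000 probes on the array.

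SKOV3 cells carried shRNA-Hic-5 in the pLKO.1-puro vector (clones sh-S1 and sh-S2) or a scramble sequence in the same vector (Ctrl), and all were selected with puromycin after lentiviral infection. A2780s cells carried human Hic-5 in the pCMV6 vector (clone pCMV-Hic-5) or the empty vector (Ctrl), selected with neomycin. Every group is a stable clone, grown adherent in RPMI medium. Each modified clone was hybridized with the Ctrl RNA of its line on 2 arrays with the dyes Cy3 and Cy5 exchanged, so there are 6 arrays, 2 replicates (the clones) in SKOV3 and 1 in A2780s. Nothing shows separate cultures of a clone, and both SKOV3 clones share 1 Ctrl RNA, so p-values leave out the spread of the Ctrl. They and the 95% intervals use a variance that limma draws toward that of all tested probes (6.57 degrees of freedom in all). Most of these degrees of freedom come from the other probes, so neither measures the spread between the clones of a probe alone.

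The members fall into kinds that act on each other. BCL2, BCL2L1 (BCL-XL), MCL1 and BCL2A1 (BFL-1) are anti-apoptotic and hold their partners inactive. BCL2L11 (BIM), BID, BIK, BMF and HRK carry only the short BH3 domain, with which they occupy the groove of the anti-apoptotic members or activate BAK1 and BAX directly. BAK1 (BAK), with its relative BAX, forms the pore in the outer mitochondrial membrane. In ovarian cancer cells this balance is known for its part in the response to platinum drugs and taxanes.

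The sequences below are those on which the main readings rest. HRK had 4 probes that did not read alike, and they are shown from the 5′ to the 3′ end of the gene. The first is printed in full, with the codons of the conserved core of the BH3 domain in capitals, and of the others the first 30 of 60 bases are given.
HRK A_24_P52882: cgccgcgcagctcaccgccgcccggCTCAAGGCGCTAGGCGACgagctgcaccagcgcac
HRK A_23_P25194: ctttggaaatccagctgcagaaacagacac
HRK A_32_P156786: atgcggctgaaatgggaattatccctccat
HRK A_32_P170454: tctgacgttgttggttctgacgtcgttgtg
BIK A_23_P404667: ttttcgttttttctaaaagatgaattccta
BAK1 A_23_P145357: aaggactatcaacaccactaggaatcccag
MCL1 A_24_P319635: atcgaaccattagcagaaagtatcacagac
MCL1 A_24_P336754: atggcgctcccagtgactactttttgactt
MCL1 A_24_P336759: tatcgttcttgatcataagccgcttattta
By the coordinates in the deposited files, the HRK probes start 0, 19917, 21339 and 24965 bases downstream of the first, on the minus strand of chromosome 12. They span 25025 bases, and the HRK gene of GRCh38.p14 spans 25298. The build of these coordinates is not named in the files. It is not GRCh38, since only 10.4% of 28031 probes lay within the GRCh38.p14 span of their gene. The HRK probe with the BH3 codons has a G and C content of 76.7%, against 40 to 45% for the other HRK probes. The HRK probes lie at chr12:117318970-117319029, chr12:117299053-117299112, chr12:117297631-117297690 and chr12:117294005-117294064 in the same order. BIK was read by a single probe at chr22:43525495-43525554, plus strand, and BAK1 by a single probe at chr6:33540585-33540644, minus strand. The MCL1 probes lie on the minus strand at chr1:150550738-150550797, chr1:150547228-150547287 and chr1:150547622-150547681. Exon and UTR assignments were not made here.

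Signal and labels bear on every SKOV3 value. On the 4 SKOV3 arrays the median signal over background was 9.52 to 25.5 in Cy5 and 373 to 530 in Cy3, whereas on the A2780s arrays it was 325 to 568 in either dye. Both RNAs with an shRNA label changed sign with the dye on the 1 probe of TGFB1I1, so no fall was measured. TGFB1I1 in them was not called lower than in the Ctrl, with log2 ratios of -0.16 and 0.12 for sh-S1 and -0.12 and 0.28 for sh-S2 (mean 0.03 ± 0.07, SD, n = 2 clones, limma adjusted p = 0.86), whereas in pCMV-Hic-5 it was higher by 4.05 and 2.60. By the study's methods, these clones had been picked for their Hic-5 mRNA and protein levels. In what follows, the SKOV3 clones are the RNAs that carry these labels. Over 16462 probes well above background in every channel, the Cy3 profile of sh-S1 had a Pearson correlation of 0.898 to 0.899 with the SKOV3 Ctrl and 0.932 with the A2780s Ctrl, and that of sh-S2 0.890 and 0.948. In Cy5 the correlations with the SKOV3 Ctrl were 0.925 to 0.943 and 0.918 to 0.936, against 0.915 and 0.920 with the A2780s Ctrl. ERBB2, amplified in SKOV3, had a log2 ratio of -2.28 in the clones over the Ctrl. Of 10 epithelial markers KRT19, EPCAM, CDH1 and MSLN did not pass the filter in SKOV3. Of the 6 tested, 4 were called lower on their brightest probe (KRT7, KRT8, KRT18 and PAX8, from -2.14 to -3.58). The tested probes of KRT8 ran from -2.14 to -0.38 and those of KRT18 from -3.53 to -2.14. The A2780s Ctrl stood against the SKOV3 Ctrl at -2.77 for ERBB2, -4.66 for KRT7 and -3.88 for KRT8. For KRT18 and PAX8 it stood at -5.28 and -5.04, and for the uncalled MUC16 and WT1 at -0.31 and -0.76. EPCAM, too dim to test in SKOV3, stood at 0.50. In A2780s 1 of 5 epithelial markers that passed was called higher, KRT18, at 0.54 and 0.65, although the means of its probes ran from -0.10 to 0.76. Of 5 fibroblast and 4 leukocyte markers none was called in either comparison, and neither of the endothelial markers could be tested in SKOV3. The part of these differences in the SKOV3 results was not tested.

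No BCL2 family probe passed the call in SKOV3, for which both a 2-fold difference and an adjusted p no higher than 0.05 were needed. Testing required signal well above background in 4 of 4 Ctrl channels, or in both channels of at least 1 clone, and 15 of the 23 probes, of 9 genes, were tested. Of all 24958 probes tested, 7.14% were called, so 0 of 15 is to be read against that share. Background correction added an offset of 50 to every channel, which draws ratios toward 0. The median Cy5 signal of these arrays was lower, at 9.52 to 25.5. With the processed signals of the scanner software BMF was called lower at -1.003, and BAK1 stood at -0.96. Over all probes 1971 were then called higher and 2356 lower, against 743 and 1038. With an offset of 16 no member was called. In the main setting, 7 of 15 member probes had an unadjusted p under 0.05, against 41.1% of all probes tested. With the adjusted p alone 5 member probes passed, all with lower signal in the clones (BAK1, BMF and 1 probe each of BCL2A1, HRK and MCL1), where 16.2% of all probes passed lower and 15.6% higher. The median log2 ratio of the 15 probes was -0.15, with a range of -0.65 to 0.32 and 9 of 15 below 0, and the median of all probes tested was 0.00167.

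BAK1, which sits in the outer mitochondrial membrane, had the largest ratio of the tested members. Its probe read -0.92 and -0.30 in sh-S1 and -0.94 and -0.44 in sh-S2, the first value of each clone with the clone in Cy5. All 4 arrays placed the clones below the Ctrl, and the arrays with the clone in Cy5 placed them lower than the others. The mean was -0.65 ± 0.05 (SD, n = 2 clones), with a 95% interval of -0.87 to -0.43 and a limma adjusted p of 0.00249. In channel levels, log2 signals on a scale common to the arrays, the SKOV3 Ctrl averaged 10.40 in Cy3 and 9.65 in Cy5. The levels of sh-S1 were 9.56 and 9.57 and those of sh-S2 8.99 and 9.37, so the clones lay below the Ctrl mean of the same dye, while the lowest Ctrl channel, at 9.43, lay within the range of the clones. BAK1 stayed under 2-fold in each alternative setting run, from -0.37 to -0.96.

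Among the anti-apoptotic members, MCL1 is the short-lived one that is lost early under stress, and 2 of its 3 probes had the widest gaps between the dyes among the tested members. A_24_P336754 read -1.16 and -0.81 with the clones in Cy5 and 0.53 and 0.21 with the clones in Cy3. Its mean of -0.31 ± 0.01 (SD, n = 2 clones) had a limma adjusted p of 0.0450, although the sign turned between the dyes in both clones. A_24_P336759 read -0.41 and -0.52 in Cy5 and 0.88 and 0.88 in Cy3, with a mean of 0.21 and an adjusted p of 0.148. A_24_P319635 read -0.44, -0.04, -0.21 and 0.09 in the order of sh-S1 in Cy5 and Cy3 and sh-S2 in Cy5 and Cy3, with a mean of -0.15 (95% interval -0.39 to 0.09). The small SD of these probes therefore measures how alike the clones were and not the gap between the dyes. Averaged over its probes, MCL1 stood at -0.08 with an adjusted p of 0.546.

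BCL2A1, an anti-apoptotic member known as an NF-κB target, was lower with the clones in Cy5 alone. Its probe A_23_P321703 read -0.85 and -0.71 in Cy5, and 0.03 and -0.08 in Cy3, for sh-S1 and sh-S2. The mean was -0.41 ± 0.01 (SD, n = 2 clones) with an adjusted p of 0.0165, and the mean of the Cy3 orientation was -0.03. A further BCL2A1 probe was not well above background in either clone and was so in the Ctrl on 2 of 4 arrays. It was too dim to test, and read -0.36 and -0.12 in sh-S1 and -0.08 and -0.08 in sh-S2. BCL2L1, which encodes BCL-XL, also changed sign with the dye. It read -0.26 and -0.16 with the clones in Cy5 and 0.27 and 0.22 in Cy3, and its mean of 0.02 had a 95% interval of -0.20 to 0.24. BCL2 itself, on probe A_23_P208132, read 0.53, -0.04, 0.20 and 0.20, with a mean of 0.22 ± 0.03 (SD, n = 2 clones) and an adjusted p of 0.122. The 95% interval of BCL2 was -0.000147 to 0.44, and BCL2 and BCL2L1 were not tested against each other. The further probes of these genes were too dim to test, with -0.08, -0.08, -0.10 and -0.28 for BCL2 A_23_P352266 and -0.04, 0.03, 0.03 and -0.08 for BCL2L1 A_24_P100130.

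The BH3-only members covered both sides of 0. BMF, which is held at the cytoskeleton through dynein light chain and freed when cells detach, was below the Ctrl on all 4 arrays, at -0.27 and -0.26 in sh-S1 and -0.44 and -0.79 in sh-S2. Its mean was -0.44 ± 0.25 (SD, n = 2 clones), with an adjusted p of 0.0268. With the processed signals of the scanner software it stood at -1.003 and passed the call, and no other member passed the full call in an alternative run with a test. The value of sh-S1 alone was -0.27 and that of sh-S2 alone -0.62.

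BID, which caspase-8 cleaves to link death receptors to mitochondria, had a higher mean in sh-S2 than in sh-S1 on both of its 2 probes. This held in both dyes on A_24_P187948 only, and on A_23_P154929 the means were 0.20 and 0.10. A_24_P187948 read -0.08 and 0.26 in sh-S1 and 0.50 and 0.60 in sh-S2 (mean 0.32 ± 0.33, SD, n = 2 clones, adjusted p = 0.111). A_23_P154929 read 0.07, 0.13, -0.22 and 0.62, with a mean of 0.15 and an adjusted p of 0.291. Neither passed. BCL2L11, which encodes BIM, had 5 probes, of which 2 were tested. A_24_P122921 read -0.04 and -0.16 in sh-S1 and -0.09 and -0.32 in sh-S2, a mean of -0.15 (adjusted p = 0.292). A_23_P309996 read -0.35, -0.09, 0.24 and -0.13, a mean of -0.08 (adjusted p = 0.632). The other BCL2L11 probes, 2 of which overlap in their coordinates, had means between -0.13 and -0.01.

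HRK, a BH3-only member known from neurons deprived of growth factor, read differently on its probes. The probe with the BH3 codons, A_24_P52882, gave 0.17 and -0.03 with the clones in Cy5 and -0.88 and -0.85 with the clones in Cy3. Its mean of -0.40 ± 0.06 (SD, n = 2 clones) passed the adjusted p at 0.0189, and its sign in Cy5 alone was positive at 0.07. A_32_P170454 gave -0.08, -0.15, 0.14 and -1.13, so the mean of -0.30 rested on 1 array of sh-S2, and A_32_P156786 gave 0.11, -0.10, 0.18 and -0.15, a mean of 0.01. A_32_P156786 was well above background in 2 of 4 Ctrl channels and passed the filter through sh-S2 alone. A_23_P25194, which stands out in A2780s, was too dim to test and gave -0.13, -0.03, -0.07 and 0.17. The HRK and MCL1 probes that passed the adjusted p thus read low in opposite dyes, HRK with the clones in Cy3 and MCL1 with the clones in Cy5. Averaged over the tested probes, HRK stood at -0.23 with an adjusted p of 0.107.

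**Figure D1:**
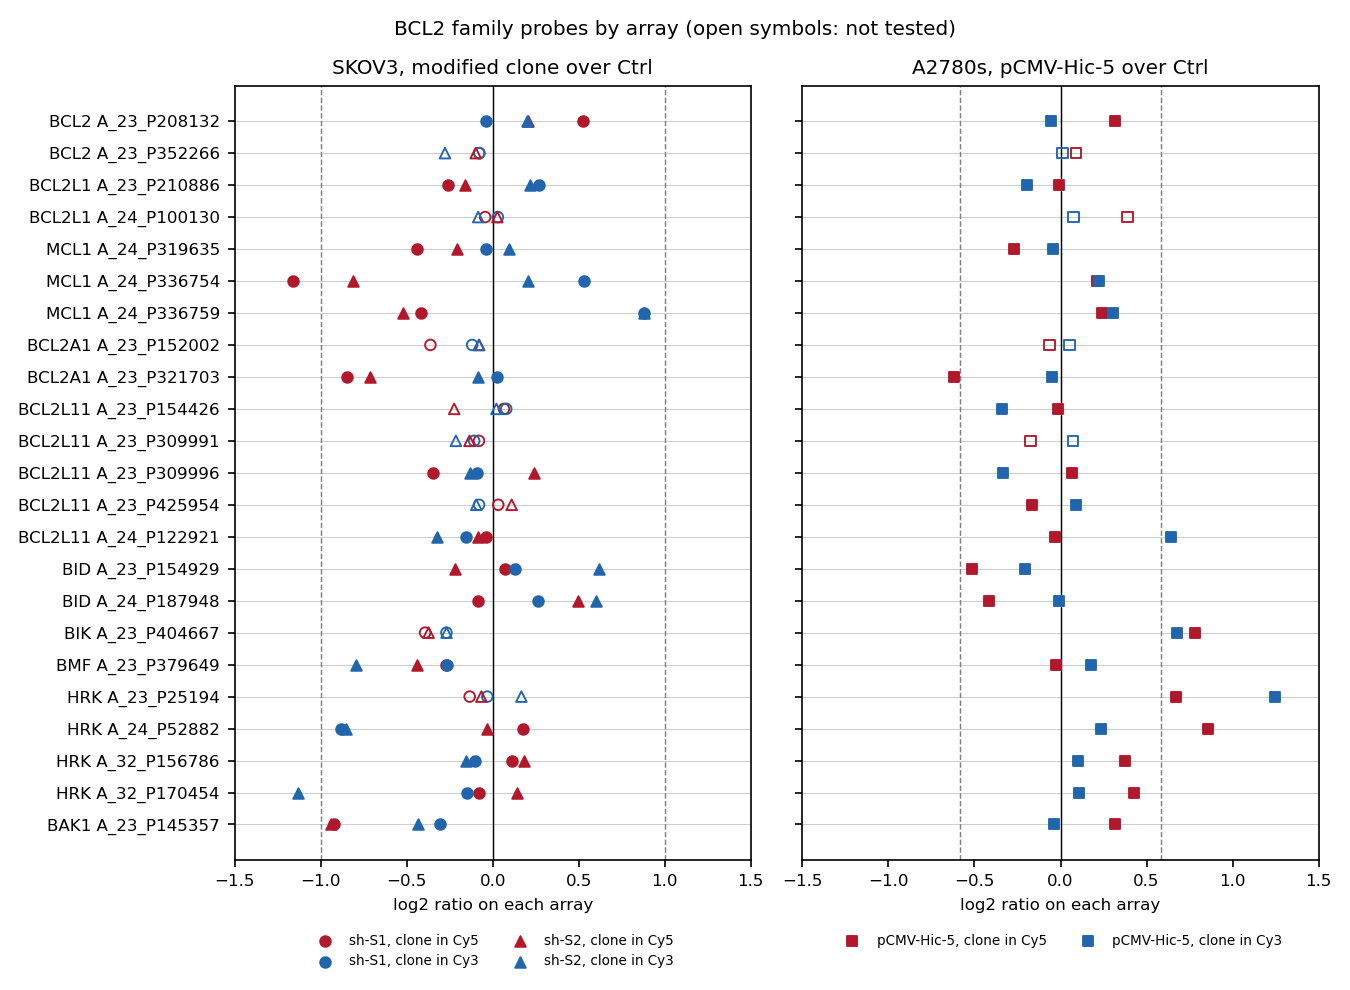
Log2 ratio of modified clone over Ctrl for each of the 23 BCL2 family probes on every array, SKOV3 at left (circles sh-S1, triangles sh-S2) and A2780s at right, red with the clone in Cy5 and blue with the clone in Cy3. Dashed lines mark 2-fold in SKOV3 and 1.5-fold in A2780s, and open symbols are probes that were not tested. The MCL1 probes A_24_P336754 and A_24_P336759 split by colour on either side of 0, BAK1 lies left of 0 on all 4 SKOV3 arrays, and BIK and HRK A_23_P25194 lie right of the dashed line on both A2780s arrays.

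Readings of other members also differed between the dye orientations. In 8 of the 15 tested probes (53.3%) the mean of the arrays with the clones in Cy5 and that of the arrays with the clones in Cy3 had opposite signs, and this held for 44.0% of all tested probes. The median size of the gap between the orientations was 0.45 for the members and 0.32 for all probes. The 8 member probes that were not tested in SKOV3 were well above background in Cy5 on at most 1 of 4 arrays, and 7 of them on none. The tested HRK probe A_32_P156786 was also so on only 1 of 4 arrays. Among the untested probes, BIK read -0.39 and -0.27 in sh-S1 and -0.37 and -0.27 in sh-S2, and its mean of -0.33 was given no test.

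**Figure D2:**
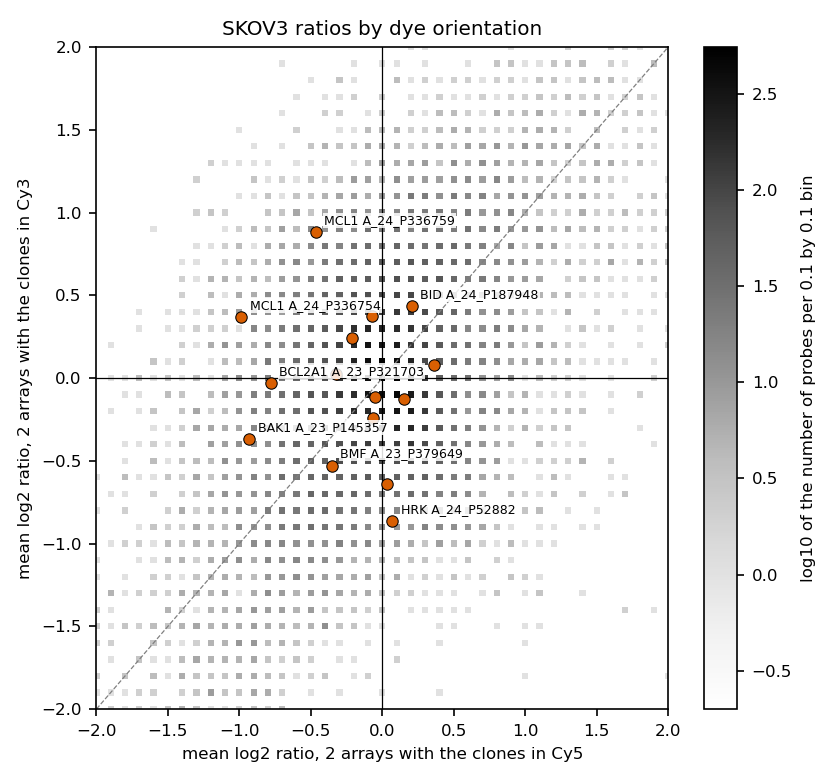
Mean log2 ratio of the 2 SKOV3 arrays with the clones in Cy5 (horizontal) against that of the 2 arrays with the clones in Cy3 (vertical), with the 15 tested BCL2 family probes in orange over all 24958 tested probes in grey bins. Points on the dashed line read the same in both orientations, and the MCL1 probes A_24_P336754 (-0.99 and 0.37) and A_24_P336759 (-0.47 and 0.88) lie far from it.

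In A2780s, BIK and 1 probe of HRK were called higher in pCMV-Hic-5 than in the Ctrl, and neither call held in every background setting. With 1 replicate there was no test, and a probe was called when its mean reached 1.5-fold and both arrays pointed the same way. Of the 23 member probes 19 passed the filter on dim signal, covering all 10 genes, and 2 were called higher and 0 lower. Among the 30531 probes that passed, 3.26% were called higher and 1.32% lower. The median of the 19 probes was 0.13, with 11 above 0 and 8 below, against -0.01 over all probes.

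HRK on probe A_23_P25194 read 0.67 and 1.24, a mean log2 ratio of 0.96 or 1.94-fold. In channel levels pCMV-Hic-5 stood at 7.88 in Cy5 and 7.97 in Cy3 and its Ctrl at 7.21 in Cy3 and 6.72 in Cy5. The 10 channels of all other RNAs ran from 6.72 to 7.21. Most of these were SKOV3 channels on another slide, and some of them were not well above background. The probe was picked by its ratio on these channels, and the share of all probes set apart in this way was not counted. The other HRK probes read 0.86 and 0.23 for A_24_P52882, 0.43 and 0.11 for A_32_P170454, and 0.38 and 0.10 for A_32_P156786, and none of these reached 1.5-fold in the mean. A_32_P156786 was well above background in both pCMV-Hic-5 channels and in 1 of 2 Ctrl channels, so it passed the filter through the clone. The mean over the 4 probes, this one included, was 0.50, which is under 1.5-fold.

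BIK, a BH3-only protein of the endoplasmic reticulum, read 0.78 and 0.68, a mean of 0.73 or 1.66-fold. Its levels in pCMV-Hic-5 were 8.17 and 8.29, and those of all other channels ran from 7.04 to 7.77. The limits given for the HRK levels hold here too. Both calls depend on the background correction. When its parameters were fitted on all spots, including those with a local background over 1000, BIK stood at 0.52 and HRK A_23_P25194 at 0.47, short of 1.5-fold, and no member probe was called.

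The other members stayed under 1.5-fold in A2780s. BCL2A1 read -0.62 and -0.05, and the BID probes -0.52 and -0.21, and -0.42 and -0.01. BCL2L11 A_24_P122921 read -0.03 and 0.64. MCL1 ran from -0.16 to 0.27 over its probes, BCL2 stood at 0.13, BCL2L1 at -0.10, BMF at 0.08 and BAK1 at 0.14.

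**Figure D3:**
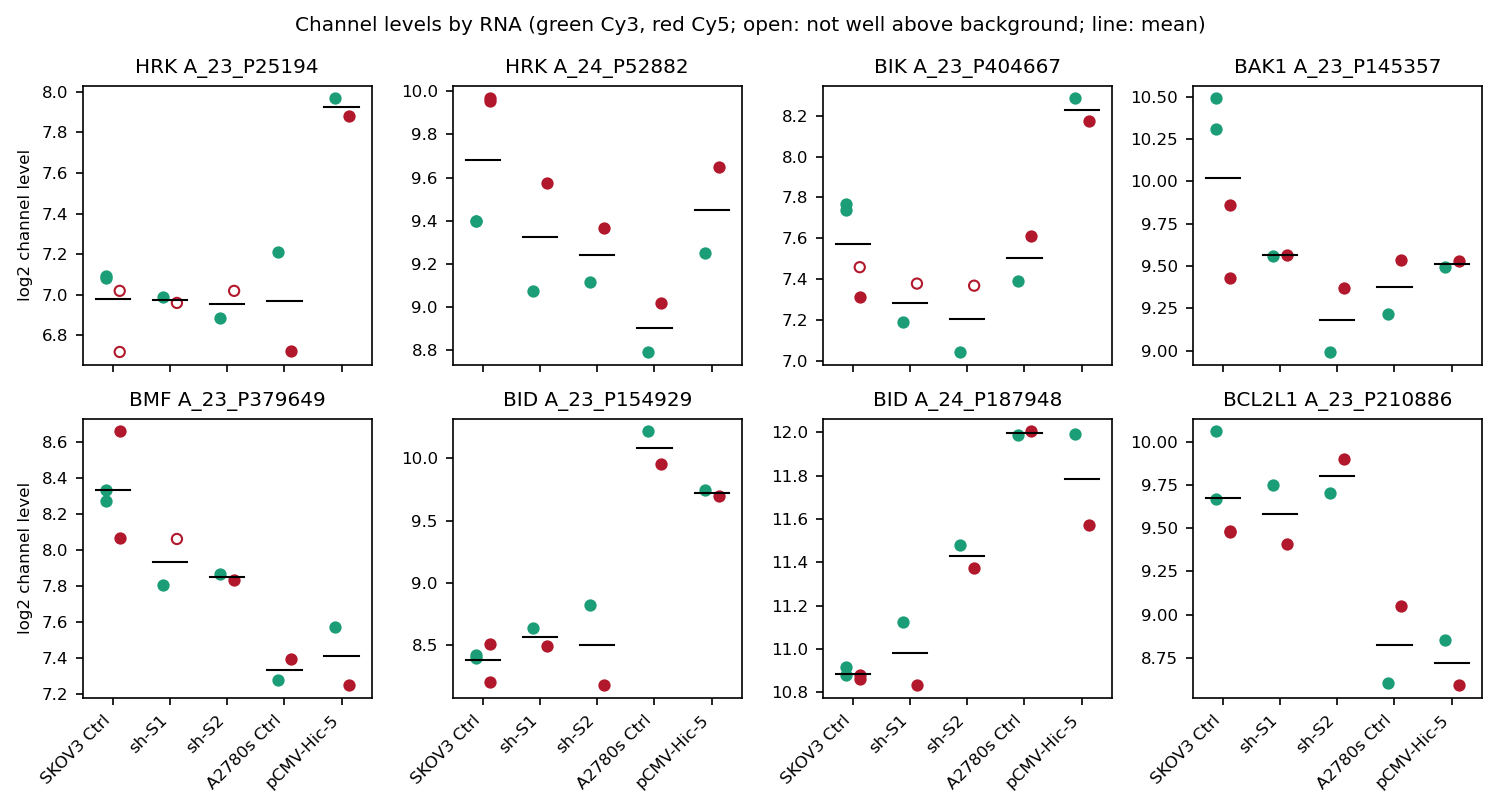
Log2 channel level of 8 member probes in the 5 RNAs, green in Cy3 and red in Cy5, open where the probe was not well above background, with a line at the mean; the vertical axes differ between panels. HRK A_23_P25194 and BIK are highest in pCMV-Hic-5 in both dyes, and both BID probes are higher in the A2780s RNAs than in the SKOV3 RNAs.

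Levels of a member were compared between the lines in the Ctrl RNAs, within a dye. Each line has 1 Ctrl RNA and a slide of its own, so there was no test, and slide and line cannot be told apart. A difference was called at 2-fold in the mean with the same direction in both dyes, which 17.5% of 30786 probes met. Of 18 member probes, 2 were called, both of BID and both higher in A2780s. BID A_23_P154929 had levels of 10.08 in the A2780s Ctrl and 8.39 in the SKOV3 Ctrl, a log2 difference of 1.80 in Cy3 and 1.59 in Cy5. BID A_24_P187948 had levels of 11.997 and 10.88, with differences of 1.09 and 1.13. BMF was lower in A2780s by 1.03 in Cy3 and 0.97 in Cy5, just short of 2-fold in the mean. BCL2L1 differed by -1.26 and -0.43, and BAK1 by -1.19 and -0.11. The values moved with the scaling. With each channel centred on its median the median of all probes moved from 0.07 to 0.41, BID stood at 2.66 and 2.90 and BMF at -1.28, whereas BAK1 turned to 0.44, MCL1 A_24_P336754 from -0.60 to 1.25 and HRK A_24_P52882 from -0.78 to 0.16.

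The clone ratios and these line differences share the SKOV3 Ctrl, so they are only set side by side. For BAK1 the clones stood at -0.65 and the A2780s Ctrl at -0.65 against the SKOV3 Ctrl. The latter value was -1.19 in Cy3 and -0.11 in Cy5, and 0.44 with channels centred on their medians, so the match rests on the scaling. For BMF the values were -0.44 and -0.999, for BID A_24_P187948 0.32 and 1.11, and for BCL2L1 0.02 and -0.85. The other members are not paired here.

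The genes that surround the family were read on 7 lists with 75 genes, each by its brightest tested probe. In SKOV3 69 genes were tested, of which 3 were called higher and 5 lower, 11.6% against the 7.14% of all probes. In A2780s 74 genes passed the filter, of which 6 were called higher (8.11%, against 3.26% of all probes) and 1 lower. These shares are descriptions of lists chosen with results known. They count 1 bright probe per gene, whereas the shares of all probes include dim probes and several probes of a gene, so the sets are not alike.

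The direct relatives outside the members held the larger SKOV3 changes. BAX, the partner of BAK1 in forming the pore, rose in the clones, with 1.61 and 1.99 in sh-S1 and 1.57 and 1.52 in sh-S2 (mean 1.67 ± 0.18, SD, n = 2 clones, limma adjusted p = 7.17e-05). It was the 1 called of 7 tested multi-domain relatives, whose median was 0.13. Among 9 BH3-only or BH3-like genes 2 were higher and 1 lower, with a median of -0.16. PMAIP1 (NOXA), which binds MCL1 and BCL2A1, fell by 1.59 on the log2 scale (SD 0.18, adjusted p = 8.79e-05). BBC3 (PUMA), which binds every anti-apoptotic member, rose by 1.16 (adjusted p = 0.000319), although its probes ran from 0.07 to 2.60. BNIP3, a hypoxia target, rose by 1.17 ± 1.09 (adjusted p = 0.0300) and rested on sh-S2, at 1.94, whereas sh-S1 stood at 0.40.

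The inhibitors of apoptosis, which block caspases or the signalling around them, gave 2 lower of 6 tested, with a median of -0.48. BIRC2 fell by 1.53 (adjusted p = 6.09e-05) and BIRC3 by 1.32 (adjusted p = 0.000400). None of 13 apoptosome and caspase genes (median 0.07), 9 death receptor genes (median -0.14) and 8 genes of the mitochondrial gate (median -0.44) was called in SKOV3. CYCS, cytochrome c itself, stood at 0.71 (adjusted p = 0.00767), under 2-fold. Of 17 regulators of the family (median -0.31) JUN fell by 3.32 (adjusted p = 3.88e-06) and E2F1 by 1.06 (adjusted p = 0.000287). DYNLL2, the dynein light chain that holds BMF, stood at -0.66 (adjusted p = 0.00412) and DYNLL1 at -0.38 (adjusted p = 0.0280), both under 2-fold. Beside these clone values, the A2780s Ctrl stood against the SKOV3 Ctrl at 1.41 for BAX, -2.72 for PMAIP1, -0.25 for BBC3, 1.89 for BNIP3, -1.49 for BIRC2, -6.33 for JUN and -1.72 for E2F1, and BIRC3 was not well above background in the A2780s Ctrl.

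In A2780s the regulators led. DDIT3 (CHOP) read 3.01 and 2.81, JUN 2.26 and 2.13, and ATF4 1.61 and 1.35, and these were the 3 called of 18. ATF4 and DDIT3 are transcription factors of the integrated stress response, and JUN is known as an activator of HRK in neurons. BBC3 read 1.46 and 0.28, BAD, a BH3-only protein controlled by phosphorylation, 1.11 and 0.31, and XIAP 0.68 and 0.55. VDAC3, a channel of the outer mitochondrial membrane, was the 1 gene called lower, at -0.60 and -0.64. No apoptosome, caspase, death receptor or other multi-domain gene was called.

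**Figure D4:**
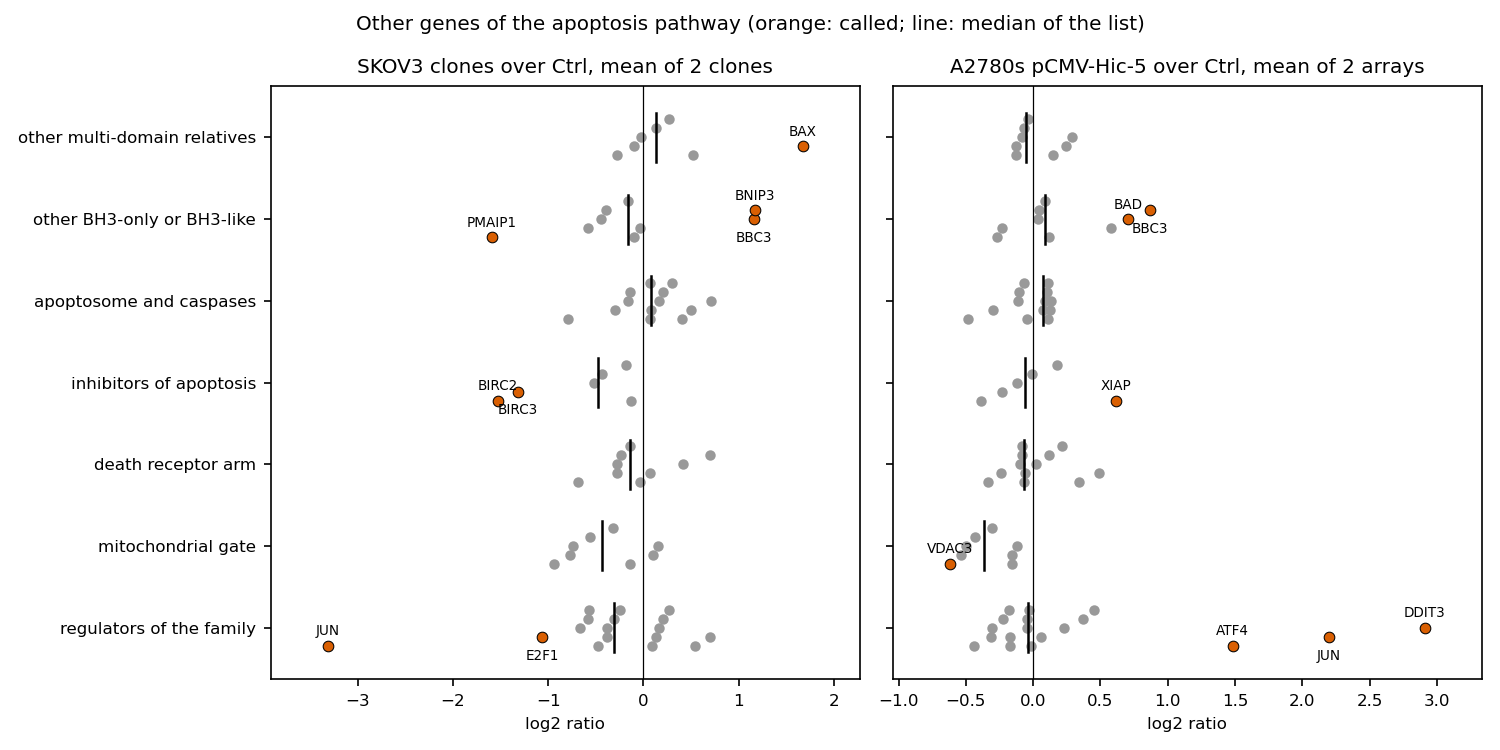
Log2 ratio of modified clone over Ctrl for the genes of 7 apoptosis lists, SKOV3 at left (mean of 2 clones) and A2780s at right (mean of 2 arrays), with called genes in orange and named and the median of each list as a black line. JUN lies at -3.32 in SKOV3, the lowest value of these lists, and at 2.20 in A2780s.

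The promoter of HRK, called in A2780s on probe A_23_P25194 alone, is shown from RefSeq, GRCh38.p14, chr12:116881442-116881691, minus strand, the 250 bases before the gene start. Capitals mark the match to TGATGNAA, a core of sites bound by ATF4 with its partners, searched on both strands and starting 75 bases before the gene start.
HRK promoter: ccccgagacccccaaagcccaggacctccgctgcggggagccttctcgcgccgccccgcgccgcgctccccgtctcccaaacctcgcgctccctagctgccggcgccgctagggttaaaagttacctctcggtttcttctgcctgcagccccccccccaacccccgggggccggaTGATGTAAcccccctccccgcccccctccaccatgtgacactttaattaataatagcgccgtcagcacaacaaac
Of 34796 promoter windows of this length 3.16% held these letters, and of 14 member windows of 8 genes 2 did, those of HRK and BCL2A1. BIK and MCL1 were not searched. TGACGTCA, the palindrome bound by CREB and ATF dimers, was in 1.64% of all windows and in no member window. CAGGTG was in 17.5% and in the BMF window of the members, and GGGCGG was in 42.6% and in 8 of the 14 member windows. A match describes the letters in these windows and no binding. Whether ATF4 or DDIT3 acts on HRK was not tested. Of the members with TGATGNAA, BCL2A1 read -0.62 and -0.05 in A2780s, and HRK 0.67 and 1.24 on its called probe.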

How the data were processed

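Total RNA of 5 clones was hybridized on 6 Agilent 2-colour arrays. The authors deposited spot intensities (mean and local background) from Feature Extraction, version 10.7.3.1 by the file headers and 8.5.1.1 by the submitters' processing notes, with no normalization, beside processed intensities. The log10 ratios (Cy5 over Cy3) that they deposited, per spot and again as a value table of the series, served only as a check: 45015 of 45015 values per array lay within 0.01 of each other, with medians of 0 to 0.00139, so scale and direction are known. From the intensities, background was corrected in limma 3.58.1 (R 4.3.3) by normexp with an offset of 50, fitted without spots flagged for background, and spots with a local background over 1000 (40 on 1 A2780s array) were left out. Loess followed within arrays. Control and outlier-flagged spots (121 to 362 per array) were left out. The offset compresses ratios of dim probes, and it exceeded the median Cy5 signal of every SKOV3 array. All ratios are log2, clone over Ctrl, and 28078 of 41000 probes were matched to RefSeq names.

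Dye-swapped arrays were averaged, and the mean of the 2 SKOV3 clones was set against 0 in limma (lmFit, eBayes), adjusted by Benjamini-Hochberg over 24958 probes and tested on simulated data. The simulated clones had independent noise with spreads from limma's own fit, and no dye effect or shared Ctrl. That run therefore cannot show how the method handles a dye effect or a shared Ctrl. Levels per channel followed Aquantile. Precision is limited by how few arrays there are and by signal over background. Slides, 1 per line, could not be fitted as a block. Members and lists were chosen with earlier results of these data known. Every member is named, and from each list at most 4 called genes by size and 2 uncalled ones; genes most like a called SKOV3 member were not sought, since none was called. Motif letters were searched in the RefSeq promoter table. Alternatives covered background, normalization, filter, dye orientation, clones and probe averaging.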

Additional observations from a re-analysis of the deposited data

Results flagged for a closer look

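For these genes all 4 SKOV3 arrays lay on one side of 0 and both A2780s arrays on the other, and the difference between the lines was not tested. BIK stood at -0.33 in SKOV3, where it was too dim to test, and at 0.73 in A2780s, where it was called, a log2 difference of 1.05. PMAIP1 stood at -1.59 and 0.12, a difference of 1.71, and BNIP3 at 1.17 and -0.27, a difference of -1.44; both were called in SKOV3 and not in A2780s. JUN, called in both, stood at -3.32 and 2.20, a difference of 5.51.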

How the results depend on the processing

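With the 2-fold threshold kept, no BCL2 family probe was called higher in SKOV3 in the settings run, and none lower except BMF. With the processed signals of Feature Extraction BMF was called (1 member lower), SKOV3 calls over all probes were 1971 higher and 2356 lower (743 and 1038 in the main setting), 9 pathway genes were lower in SKOV3 (5), 2 in A2780s (1), and 700 A2780s probes were lower (403). With normexp fitted on all spots 0 member probes were higher in A2780s (2), and 0 pathway genes lower. With median centring 1578 SKOV3 probes were lower. With the clones in Cy5 alone, 1797 A2780s probes were higher and 1519 lower, with 1 member (BCL2A1, -0.62) and 7 pathway genes lower, MCL1 A_24_P336759 reversed to -0.47 and HRK A_24_P52882 to 0.0707. With the clones in Cy3 alone, 1222 SKOV3 probes were higher, 214 A2780s probes lower, and MCL1 A_24_P336754 reversed to 0.37. With 1.5-fold required on each array, 495 A2780s probes were higher and 123 lower, and 3 pathway genes higher. With means over the probes of a gene, 1 member was higher in A2780s, with 656 genes higher and 217 lower in all. With the adjusted p alone, an alternative chosen after seeing the data, 5 members, 3885 probes higher and 4043 lower passed. With channels centred on their medians, 6 member probes were higher and 1 lower in the A2780s Ctrl, and 10295 over all probes were higher. Leaving out sh-S1 or sh-S2 leaves 1 value and no test. At 2-fold alone this gave 0 members, 778 to 834 probes higher and 972 to 1155 lower, with 2 to 4 pathway genes higher and 5 to 6 lower. The cause was not tested for these changes. The slide block was not run. No paired analysis was possible because the clones share 1 Ctrl RNA on every array and each ratio is already taken within an array. The weak Cy5 signal of the SKOV3 arrays limits what dim members can show.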
